A study of Mus musculus with 9 samples.

Results

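The comparison described here set the spinal cord of mice that received a control antisense oligonucleotide (ASO) against that of mice that received saline, and asks what an oligonucleotide without the C9orf72 target does to the tissue's RNA. The genes compared were those at 0.5 RPKM or more in at least 3 of the 6 libraries of these groups, which were 14312 of the 14831 genes in the table. RPKM, reads per kilobase of transcript and per M reads, corrects for transcript length and library size. All mice were wild-type females labelled C57Bl/6, aged 10 weeks, except that the strain label is missing for control ASO replicate 3. Each was injected in the right lateral ventricle with 10 µl, either saline or 500 µg of oligonucleotide, and the cord was taken 2 weeks later. A group given 500 µg of an ASO against mouse C9orf72 is the third group of the study. Its values are given for part of the genes named. Each group had 3 libraries. The labels do not say that they came from separate animals, so that p-values measure the spread between these samples, which may be technical.

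An ASO is a short, chemically modified nucleic acid strand that pairs with a chosen RNA. Many ASOs, of the kind called gapmers, recruit RNase H1, an enzyme that cuts the RNA strand of a DNA-RNA hybrid. The oligonucleotide itself can also be bound by cellular proteins, taken up by microglia and other phagocytes, and sensed by receptors for foreign nucleic acids such as the Toll-like receptors of endosomes, which switch on interferon and cytokine genes. A control ASO lacks the target, and since the saline group was injected as well, its comparison with saline is about the presence of this 1 oligonucleotide. The sources used here do not give the chemistry or sequence of the control ASO.

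C9orf72 (ENSMUSG00000028300), a gene of the endosomal and autophagy pathway whose repeat expansion causes amyotrophic lateral sclerosis, checks the labels. It stood at 10.5, 11.4 and 11.5 RPKM in the saline libraries, at 11.2, 11.7 and 10.6 RPKM in the control ASO libraries and at 2.68, 3.4 and 3.12 RPKM in the C9orf72 ASO libraries. The saline and control ASO values overlapped, and the C9orf72 ASO values lay below both. On the log2(RPKM + 0.1) scale the difference of control ASO minus saline was 0.01 (SE 0.08, 95% interval -0.18 to 0.19, adjusted p = 0.988, limma), and its sign turned in 3 alternatives, at -0.03 to -0.00. The C9orf72 protein works in a complex with those of Wdr41 and Smcr8, genes that had log2 differences of -0.10 (95% interval -0.21 to 0.01) and 0.16 (-0.06 to 0.37).

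The depth estimated from the steps between low values was 90.3 to 124.2 M reads in each library. At that depth 45.2 to 62.1 reads on a kilobase of transcript make 0.5 RPKM. The fit was partial: 55.4% to 69% of the short genes used lay within 0.1 of a whole read count in a saline or control ASO library. Every value under 0.5 RPKM stands at 0.1 in the table, called the floor here, and 434 to 640 genes were at it in each saline or control ASO library. Correlations between libraries on the log2 scale ran from 0.9875 to 0.9908 within the groups and from 0.9863 to 0.9912 between them. Saline replicate 1 was the highest of the 6 libraries in 4850 genes and the lowest in 3106, more than any other library in both.

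Between control ASO and saline 1 of 14312 genes passed an adjusted p under 0.05 (0.00699%, limma with Benjamini-Hochberg adjustment). It was the neutrophil gene S100a9, which was higher after the control ASO. S100a9 passed the filter on low values through the control ASO libraries alone, so that its p supports no call by itself. At an unadjusted p under 0.05 lay 762 genes (5.32%), of which 197 were higher (1.38%) and 565 lower (3.95%). The 3 control ASO libraries did not overlap the 3 saline libraries in 1488 genes (10.4%), 456 higher (3.19%) and 1032 lower (7.21%). The median log2 difference over all genes was -0.02. A difference of more than 1 on the log2 scale in either direction was seen in 99 genes, and 97 of them were at the floor in some of the 6 libraries. The 95% interval lay within 1 log2 unit of 0 for 13790 genes (96.4%), and within 0.58, or 1.5-fold, for 13356 genes (93.3%). Leaving out saline replicate 1 gave 306 genes at an unadjusted p under 0.05 (2.14%), and leaving out saline replicate 2 gave 2330 (16.3%).

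**Figure D1:**
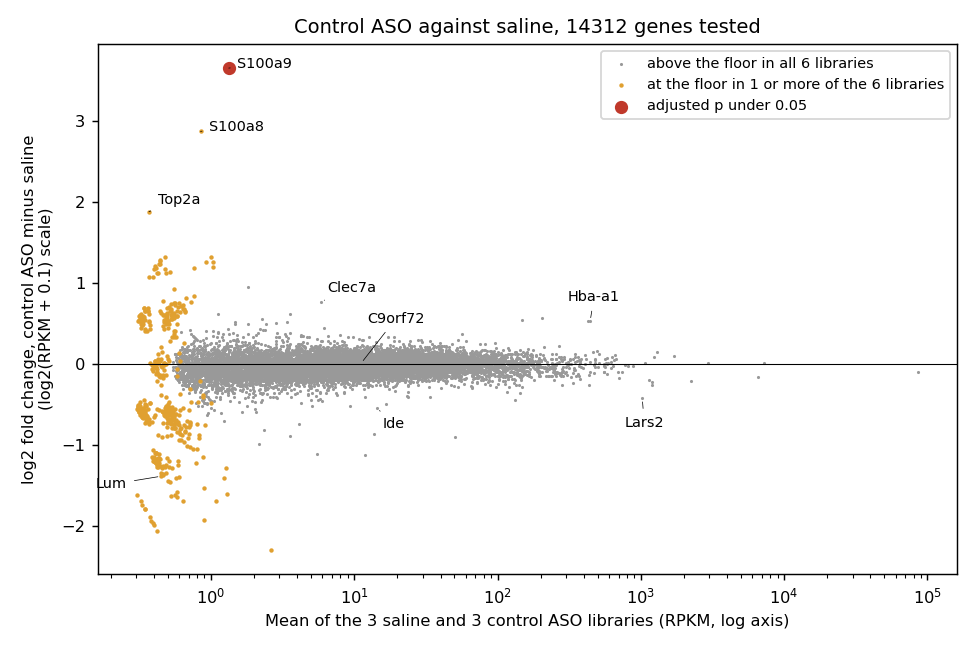
Log2 difference of control ASO minus saline (y axis, log2(RPKM + 0.1) scale) against the mean of the 6 libraries (x axis, RPKM, log scale) for the 14312 genes tested, each a point. Genes at the floor in 1 or more libraries are orange, and the 1 gene past the threshold, S100a9, is the large red point; 97 of the 99 genes beyond 1 log2 unit are orange.

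S100a9 and S100a8 encode the paired subunits of calprotectin, a calcium-binding protein that neutrophils hold in large amounts. Their promoters are shown because the genes were high in the same libraries. The sequences come from RefSeq, build GRCm38.p6, from 250 bases before the annotated start to 20 bases after it, S100a8 at chr3:90668821-90669090 on the plus strand and S100a9 at chr3:90695702-90695971 on the minus strand, and capitals mark the TATA box letters TATAAA on the strand of the gene.
S100a8: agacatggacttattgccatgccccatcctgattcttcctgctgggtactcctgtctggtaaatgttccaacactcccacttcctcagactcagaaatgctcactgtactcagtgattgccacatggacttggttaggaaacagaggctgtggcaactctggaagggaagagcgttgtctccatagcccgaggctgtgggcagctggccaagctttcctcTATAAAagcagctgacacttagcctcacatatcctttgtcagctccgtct
S100a9: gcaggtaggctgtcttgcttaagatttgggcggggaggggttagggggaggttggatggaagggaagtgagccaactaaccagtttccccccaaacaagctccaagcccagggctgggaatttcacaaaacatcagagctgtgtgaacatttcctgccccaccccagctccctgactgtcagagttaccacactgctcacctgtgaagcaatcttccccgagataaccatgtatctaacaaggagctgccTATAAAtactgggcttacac
TATAAA, searched on both strands, begins 30 bases before the annotated start of S100a8 and at the first base from the annotated start of S100a9. It is found in 12.9% of 32851 promoters of this length. The letters TTNNGNAA, a loose form of the site of the C/EBP factors of myeloid cells, were found once in the S100a8 window and at a pair of places in that of S100a9, and in 38.5% of the promoters. A match describes letters only. A TATA box usually lies before the start it serves, so that the window of S100a9 may be set from a start upstream of the one in use.

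S100a9 (ENSMUSG00000056071) stood at 3.68, 2.48 and 1.52 RPKM in control ASO replicates 1, 2 and 3, and at the floor in all saline and all C9orf72 ASO libraries. No control ASO library overlapped another group. The control ASO mean was 2.56 ± 1.08 RPKM (SD, n = 3), at least 5.13-fold higher than the 0.5 RPKM that the floor allows. The log2 difference was 3.65 (SE 0.34, adjusted p = 0.00376, limma), and 2.07 (adjusted p = 0.011) with floor values raised to 0.5 RPKM. In the C9orf72 ASO minus control ASO contrast, which shares the control ASO libraries, it was -3.65 (adjusted p = 9.4e-04, limma). S100a9 passed the filter on low values through the control ASO libraries alone. Groups that are all at the floor add no spread to the fit. Its p thus follows in part from the filter and the floor, may be too small and supports no call by itself. The same holds for S100a8 and Top2a. An exact permutation test of 3 against 3 libraries cannot go below p = 0.1. S100a9 missed the threshold without control ASO replicate 1 (3.36, adjusted p = 0.0731, limma) or replicate 2 (3.63, adjusted p = 0.0617). If any control ASO library were left out before the filter, S100a9 would drop out of the genes tested, with 2 libraries at 0.5 RPKM or more.

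S100a8 (ENSMUSG00000056054) stood at 2.28, 1.96 and 0.537 RPKM in the same libraries and at the floor in the other 6. Replicate 1 was highest and replicate 3 lowest, as for S100a9. Its log2 difference of 2.87 (SE 0.48, adjusted p = 0.169, limma) missed the threshold, and without control ASO replicate 3 it was 3.47 (adjusted p = 0.0242). Ngp, a granule protein gene of maturing neutrophils, was present in too few libraries to be tested, at 0.985, 0.995 and 0.1 RPKM after the control ASO and at the floor in the other 6 libraries. Top2a, the DNA topoisomerase of dividing cells, stood at 0.55, 0.661 and 0.707 RPKM after the control ASO and at the floor elsewhere (log2 difference 1.88, adjusted p = 0.755). Mki67, another proliferation gene, was at 0.508 and 0.555 RPKM in control ASO replicates 2 and 3 and at the floor in the other libraries, and was not tested. Both are proliferation genes, but the 13 tested genes of the cell cycle list had a median of -0.01 with 7 below 0 and 0 called. Without overlap 2 of the 13 were higher, Top2a and Pcna, and 0 lower (3.19% and 7.21% over all genes). Pcna stood at 30.1, 28 and 30.2 RPKM after saline and at 30.7, 32.9 and 32.8 RPKM after the control ASO (0.13, adjusted p = 0.795, limma). The lowest member of the list, the mitotic kinase gene Plk1, was at 0.65, 0.515 and 0.549 RPKM after saline and at 0.1, 0.1 and 0.517 RPKM after the control ASO. S100a8, S100a9 and Top2a were the 3 genes at the floor in every saline library and above it in every control ASO library, and each was at the floor in all C9orf72 ASO libraries.

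Of the 24 genes on the list of neutrophils and other leukocytes, 6 were in the table and 5 were tested, with 1 called, 3 below 0 and a median log2 difference of -0.03. S100a8 and S100a9 were 2 of the 5, both higher without overlap (3.19% over all genes). The 3 below 0, which set the median, were Csf3r (-0.03), Ptprc (-0.04) and Ly6c2 (-0.08). Csf3r, the receptor for the neutrophil growth factor G-CSF, stood at 1.74, 1.59 and 1.28 RPKM after saline and at 1.47, 1.55 and 1.45 RPKM after the control ASO. Ptprc, the pan-leukocyte gene of CD45, stood at 1.45, 1.26 and 1.08 RPKM and at 1.18, 1.29 and 1.19 RPKM. Both overlapped between the groups. The summed level of the 6 genes was 15.34 to 16.52 RPKM after saline and 16.87 to 21.42 RPKM after the control ASO, S100a8 and S100a9 included. In bulk tissue more cells of a type and more RNA per cell cannot be told apart.

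Haemoglobin genes marked blood in the libraries. Hba-a1, an alpha globin gene with a near-identical copy, Hba-a2, so that its own level is uncertain, stood at 344, 324 and 301 RPKM after saline and at 1056, 377 and 255 RPKM after the control ASO. Control ASO replicate 1 was also above the rest for Hbb-bs, a beta globin gene, with 486 RPKM against 132 to 164 RPKM in the other 5, and for Alas2, the first enzyme of heme synthesis in red cells, with 7.3 RPKM against 1.41 to 2.29 RPKM. The median log2 difference of the 7 red blood cell genes was 0.53, and -0.06 without control ASO replicate 1. That library also held the highest S100a9 and S100a8. Hba-a1 in control ASO replicates 2 and 3 (377 and 255 RPKM) lay on either side of the saline range, and S100a9 was above the floor in both. After the C9orf72 ASO Hba-a1 stood at 399, 263 and 451 RPKM, with S100a9 and S100a8 at the floor in all libraries of that group. The part of blood in the S100a9 values was not tested.

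**Figure D2:**
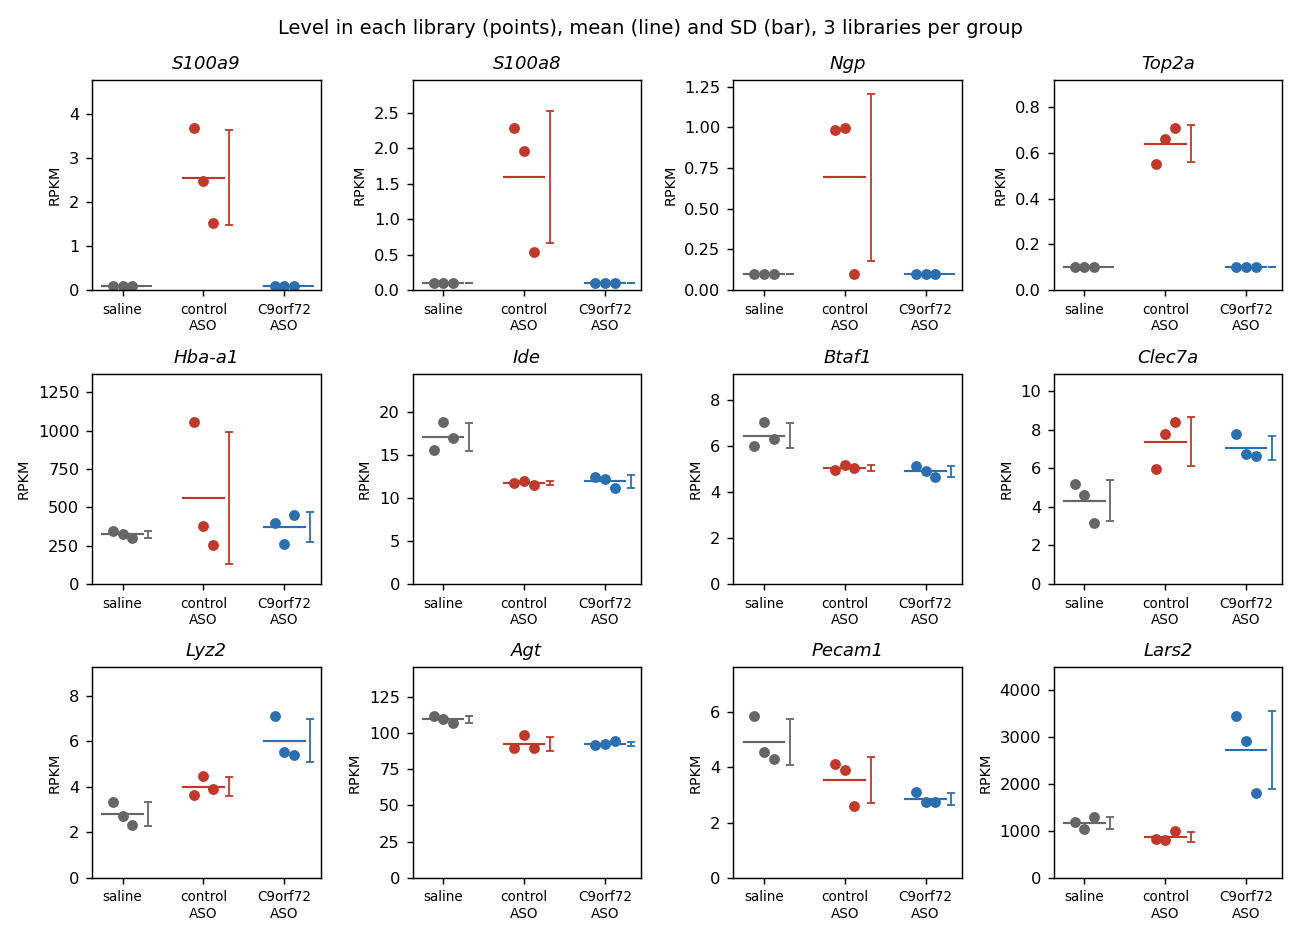
RPKM (y axes, linear, from 0) of 12 genes in each of the 9 libraries (points), with the group mean (line) and SD (bar), for saline, control ASO and C9orf72 ASO. S100a9, S100a8 and Top2a are above the floor in the 3 control ASO libraries alone, Hba-a1 is high in 1 control ASO library at 1056 RPKM, and Ide and Btaf1 are lower in both oligonucleotide groups than in saline.

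Genes at the floor in all 3 control ASO libraries and above it in all 3 saline libraries numbered 10. Their saline means reached 0.745 RPKM at most, and their control ASO levels are known only to be under 0.5 RPKM. They passed the filter on low values through the saline libraries alone, and the control ASO group, all at the floor, adds no spread, so that their p-values follow in part from the filter and the floor and support no call. Fam129c was at 0.774, 0.631 and 0.598 RPKM after saline and at 0.577, 0.503 and 0.665 RPKM after the C9orf72 ASO. Stoml3, a stomatin-like membrane protein gene, was at 0.883, 0.519 and 0.666 RPKM after saline and at 0.827, 0.712 and 0.535 RPKM after the C9orf72 ASO. Lrrc43 was at 0.806, 0.518 and 0.618 RPKM after saline and at 0.655, 0.556 and 0.642 RPKM after the C9orf72 ASO. These 3 genes thus stood at like levels in both other groups and at the floor after the control ASO. Their log2 differences of -1.93, -1.96 and -1.88 each had an adjusted p = 0.0747 (limma). With floor values raised to 0.5 RPKM the differences were -0.35, -0.37 and -0.30. Against saline they were at least 1.34-fold, 1.38-fold and 1.3-fold lower. Of the other 7, 4 (Fxyd2, Nkpd1, Mir679 and Slc38a11) were at the floor in all C9orf72 ASO libraries as well.

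Ide encodes the insulin-degrading enzyme, a zinc protease that also cuts amyloid beta. It stood at 15.5, 18.8 and 16.9 RPKM after saline, at 11.7, 12 and 11.5 RPKM after the control ASO and at 12.4, 12.2 and 11.1 RPKM after the C9orf72 ASO. Each oligonucleotide library was below each saline library, and the 2 oligonucleotide groups overlapped. The control ASO mean was 68.5% of the saline mean, with a log2 difference of -0.54 (SE 0.07, 95% interval -0.70 to -0.38, adjusted p = 0.0747, limma), which missed the threshold. C9orf72 ASO minus saline, which shares the saline libraries, was -0.51 (adjusted p = 0.0292), and C9orf72 ASO minus control ASO was 0.03 (SE 0.07, adjusted p = 0.896). Over the alternatives the adjusted p of Ide ran from 0.00143 to 0.278 and passed the threshold in 4 of 21, among them without saline replicate 1 (-0.60, adjusted p = 0.025) and with trends of length and GC content removed (-0.57, adjusted p = 0.00143).

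Btaf1, which encodes an ATPase that takes TATA-binding protein off DNA, lies 3 protein-coding genes from Ide. It stood at 5.99, 7.04 and 6.3 RPKM after saline, at 4.94, 5.16 and 5.03 RPKM after the control ASO and at 5.11, 4.92 and 4.65 RPKM after the C9orf72 ASO. The saline libraries were again above all others (control ASO minus saline -0.34, SE 0.07, adjusted p = 0.694, limma). With length and GC trends removed it was called, at -0.39 (adjusted p = 0.0249). The pair of genes between them overlapped between the groups. Cpeb3, a regulator of translation, had a log2 difference of 0.20 (95% interval -0.05 to 0.45), and March5, a mitochondrial ubiquitin ligase gene, of -0.05 (-0.18 to 0.09). On the far sides, Fgfbp3 was at -0.11, Tnks2 at 0.06, Hhex at 0.13 and Exoc6 at 0.03, none with an interval that left out 0, and Kif11, next to Ide, was at the floor in all 9 libraries. Btaf1 was named by its small p. Its place near Ide and the other neighbours were looked at after the values of Ide were seen. Among the 19 tested genes of amyloid processing, Ide was the lowest (list median -0.02), and Adam10, an alpha-secretase, was at 26.8, 30.2 and 27.8 RPKM after saline and 30.4, 31.8 and 30.9 RPKM after the control ASO (0.14, adjusted p = 0.795).

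Genes for proteins that act with or on an oligonucleotide had small differences from saline, some without overlap between the groups. Rnaseh1, the gene of RNase H1, was at 5.33, 4.83 and 5.02 RPKM after saline and at 4.74, 4.64 and 4.63 RPKM after the control ASO. It was lower without overlap (log2 difference -0.11, 95% interval -0.27 to 0.05). Of 27 genes for RNase H subunits, nucleases and oligonucleotide-binding proteins, 0 were called and 0 had an unadjusted p under 0.05, against 5.32% of all genes. Their median was 0.01, with a range of -0.13 (Cct5) to 0.13 (Hsp90aa1). The paraspeckle protein genes Nono, Sfpq and Pspc1, whose proteins can bind modified oligonucleotides, were at 0.01, 0.10 and -0.02. Hsp90aa1, a chaperone gene, was at 470, 480 and 519 RPKM after saline and, without overlap, at 524, 522 and 563 RPKM after the control ASO. Without overlap 2 of the 27 were higher and 1 lower (3.19% and 7.21% over all genes). For all 27 the 95% interval lay within 1.5-fold of 0 change. The 19 scavenger and uptake receptor genes had a median of -0.04, with 0 called. Without overlap 0 of them were higher and 3 lower.

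Sensors of nucleic acids and the interferon response were examined next. Of 22 tested sensor genes 0 were called and 0 had an unadjusted p under 0.05, where 5.32% of all genes did. Their median was -0.02. Without overlap 0 were higher and 1 lower, Samhd1 (3.19% and 7.21% over all genes). Tlr7, an endosomal receptor for single-stranded RNA, stood at 0.707, 0.741 and 0.814 RPKM after saline and at 0.648, 0.969 and 0.714 RPKM after the control ASO. Tlr3, the receptor for double-stranded RNA, stood at 7.39, 8.67 and 7.29 RPKM and at 7.74, 8.53 and 7.67 RPKM. Both overlapped between the groups, as did Myd88, the adaptor of most Toll-like receptors (-0.03, 95% interval -0.25 to 0.20). Tlr9, the receptor for DNA with CpG motifs, had no values under its symbol and could not be analysed.

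Of 37 interferon-stimulated genes tested, 0 were called, and 0 were higher and 2 lower at an unadjusted p under 0.05, a share near the 3.95% lower over all genes. The list median was -0.07, and it ran from -0.14 (without saline replicate 3) to -0.00 (without saline replicate 2). The lower pair were Rtp4, a chaperone of receptors, at 3.12, 2.49 and 2.44 RPKM after saline against 2.01, 2.3 and 2.04 RPKM after the control ASO, and Iigp1, an immunity-related GTPase gene, at 0.988, 1.26 and 1.08 RPKM against 0.676, 0.787 and 0.825 RPKM. Neither pair of groups overlapped, and both genes had an adjusted p = 0.795 (limma). Ifit1 and Ifit3, antiviral genes of the response, were at 0.04 (95% interval -0.17 to 0.24) and 0.12 (-0.07 to 0.31). The interval lay within 1.5-fold for 27 of the 37. Irf7, which amplifies the response, was at the floor in 1 saline and 2 control ASO libraries, so that its change could not be measured.

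Cytokine and signalling genes (19 tested), complement genes (17) and genes of antigen presentation (14) had medians of -0.08, -0.04 and -0.09, each with 0 called. Il33, an alarmin of oligodendrocytes and astrocytes, stood at 47.6, 55.1 and 49.7 RPKM after saline and at 53.7, 56.7 and 55.3 RPKM after the control ASO. C3ar1, the receptor for the complement fragment C3a, stood at 0.508, 0.521 and 0.528 RPKM and at 0.648, 0.738 and 0.776 RPKM. These were without overlap and close to the floor (0.40, adjusted p = 0.795, limma). After the C9orf72 ASO C3ar1 stood at 1.17, 0.904 and 1.03 RPKM. C1qa, a subunit of the first complement component, stood at 32.6, 24.6 and 22.9 RPKM and at 26.4, 28.5 and 29.5 RPKM, which overlapped.

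Microglia markers were near 0 as lists. The 21 homeostatic genes had a median of 0.02 and the 18 activated ones of -0.03. P2ry12, the ADP receptor that marks resting microglia, stood at 14.1, 14.4 and 14.3 RPKM after saline and at 14.1, 14.9 and 15.6 RPKM after the control ASO (0.06, 95% interval -0.08 to 0.20). Summed over the homeostatic list, the levels were 295.8 to 332.2 RPKM and 302.6 to 327.8 RPKM.

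A pair of activation genes had the smallest p of their list. Clec7a, which encodes the receptor dectin-1, was at 5.19, 4.64 and 3.17 RPKM after saline, at 5.97, 7.78 and 8.41 RPKM after the control ASO and at 7.77, 6.73 and 6.66 RPKM after the C9orf72 ASO (control ASO minus saline 0.77, SE 0.17, adjusted p = 0.755, limma). Lyz2, the lysozyme gene of myeloid cells, was at 3.35, 2.7 and 2.33 RPKM, at 3.65, 4.47 and 3.91 RPKM and at 7.12, 5.53 and 5.42 RPKM (0.52, SE 0.14, adjusted p = 0.795). In both genes the saline libraries lay below all oligonucleotide libraries, for Lyz2 with 3.35 RPKM in the highest saline library against 3.65 RPKM in the lowest other. Lyz1, a near-identical copy, makes the level of Lyz2 uncertain. Of the 18 activated genes 7 were above 0 and 11 below. Without overlap 3 were higher and 2 lower (3.19% and 7.21% over all genes). Cd68, a lysosomal protein of phagocytes and another member, was at 0.02. Trem2, the lipid receptor needed for activation, is on the homeostatic list and was at 0.12 with an interval of -0.10 to 0.34.

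Astrocytes, oligodendrocytes and neurons, the main cell classes of the cord, had list medians near 0. The medians were 0.02 over 20 astrocyte genes, -0.05 over 22 reactive astrocyte genes, -0.07 over 26 oligodendrocyte genes, 0.05 over 34 neuron genes and -0.01 over 18 motor neuron genes, with 0 called. Below 0 were 22 of the 26 oligodendrocyte genes and 17 of the 22 reactive astrocyte genes, where 8214 of all 14312 genes were. Of the oligodendrocyte genes 4 were lower without overlap (7.21% over all genes) and 0 higher. Their median ran from -0.13 to -0.01 over fits that left out 1 library. Gfap, the astrocyte filament gene that marks reactivity, stood at 858, 665 and 634 RPKM after saline and at 669, 676 and 666 RPKM after the control ASO, with saline replicate 1 apart. Agt, the angiotensinogen gene of astrocytes, stood at 110 ± 2.93 RPKM (SD, n = 3) after saline, at 90, 98.5 and 89.5 RPKM after the control ASO and at 91.8, 92.2 and 94.3 RPKM after the C9orf72 ASO. Saline was above both oligonucleotide groups in every library (-0.24, SE 0.06, adjusted p = 0.795, limma). Trf, the transferrin gene of oligodendrocytes, stood at 336, 280 and 302 RPKM and, after the control ASO, at 262, 269 and 234 RPKM (-0.26, adjusted p = 0.795, limma). After the C9orf72 ASO Trf stood at 320, 271 and 330 RPKM. Chat, the acetylcholine-synthesising enzyme of motor neurons, stood at 6.57, 5.7 and 6.24 RPKM and at 6.48, 5.85 and 5.43 RPKM, which overlapped.

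Vessel genes had the lowest median of the lists with 8 or more genes tested. Of 29 endothelial and mural genes 28 had a log2 difference below 0, with a median of -0.23, 0 called and 10 lower at an unadjusted p under 0.05, where 3.95% of all genes were. The libraries did not overlap in 4 (all lower, where the share over all genes was 7.21%). Pecam1, the endothelial adhesion gene, stood at 5.87, 4.55 and 4.32 RPKM after saline, at 4.13, 3.89 and 2.6 RPKM after the control ASO and at 3.11, 2.73 and 2.76 RPKM after the C9orf72 ASO (control ASO minus saline -0.48, SE 0.16, adjusted p = 0.795, limma). Cldn5, the tight junction gene of the blood-brain barrier, stood at 8.18, 5.59 and 5.73 RPKM, at 5.73, 4.5 and 4.02 RPKM and at 3.68, 3.7 and 5.35 RPKM. Saline replicate 1 was the highest library for both. The list's summed level was 392.3 to 480.5 RPKM after saline and 323.2 to 394.5 RPKM after the control ASO, which overlapped. Over fits that left out 1 library its median ran from -0.30 (control ASO replicate 1) to -0.14 (control ASO replicate 3), and was -0.16 without saline replicate 1.

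Genes of the cord's linings had medians closer to 0. The 21 genes of meninges and matrix had a median of -0.11 (-0.06 without control ASO replicate 3 and -0.07 without saline replicate 1), and Col4a1, a basement membrane collagen gene, stood at 7.05, 5.2 and 4.82 RPKM after saline and at 4.69, 4.34 and 4.09 RPKM after the control ASO. The 12 genes of ependyma and choroid plexus had a median of -0.16, with 11 below 0, and of -0.05 without saline replicate 1. The smallest p were those of Tmem212, a gene of ciliated cells, at 1.53, 1.07 and 1.05 RPKM against 0.759, 0.879 and 0.743 RPKM without overlap (-0.54, adjusted p = 0.795, limma), and Dynlrb2, a dynein light chain gene, at 3.11, 1.8 and 2.61 RPKM against 1.72, 1.3 and 1.82 RPKM, which overlapped. Foxj1, the master factor of motile cilia, stood at 8.44, 6.88 and 7.04 RPKM and at 7.52, 6.85 and 7.09 RPKM, which overlapped.

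**Figure D3:**
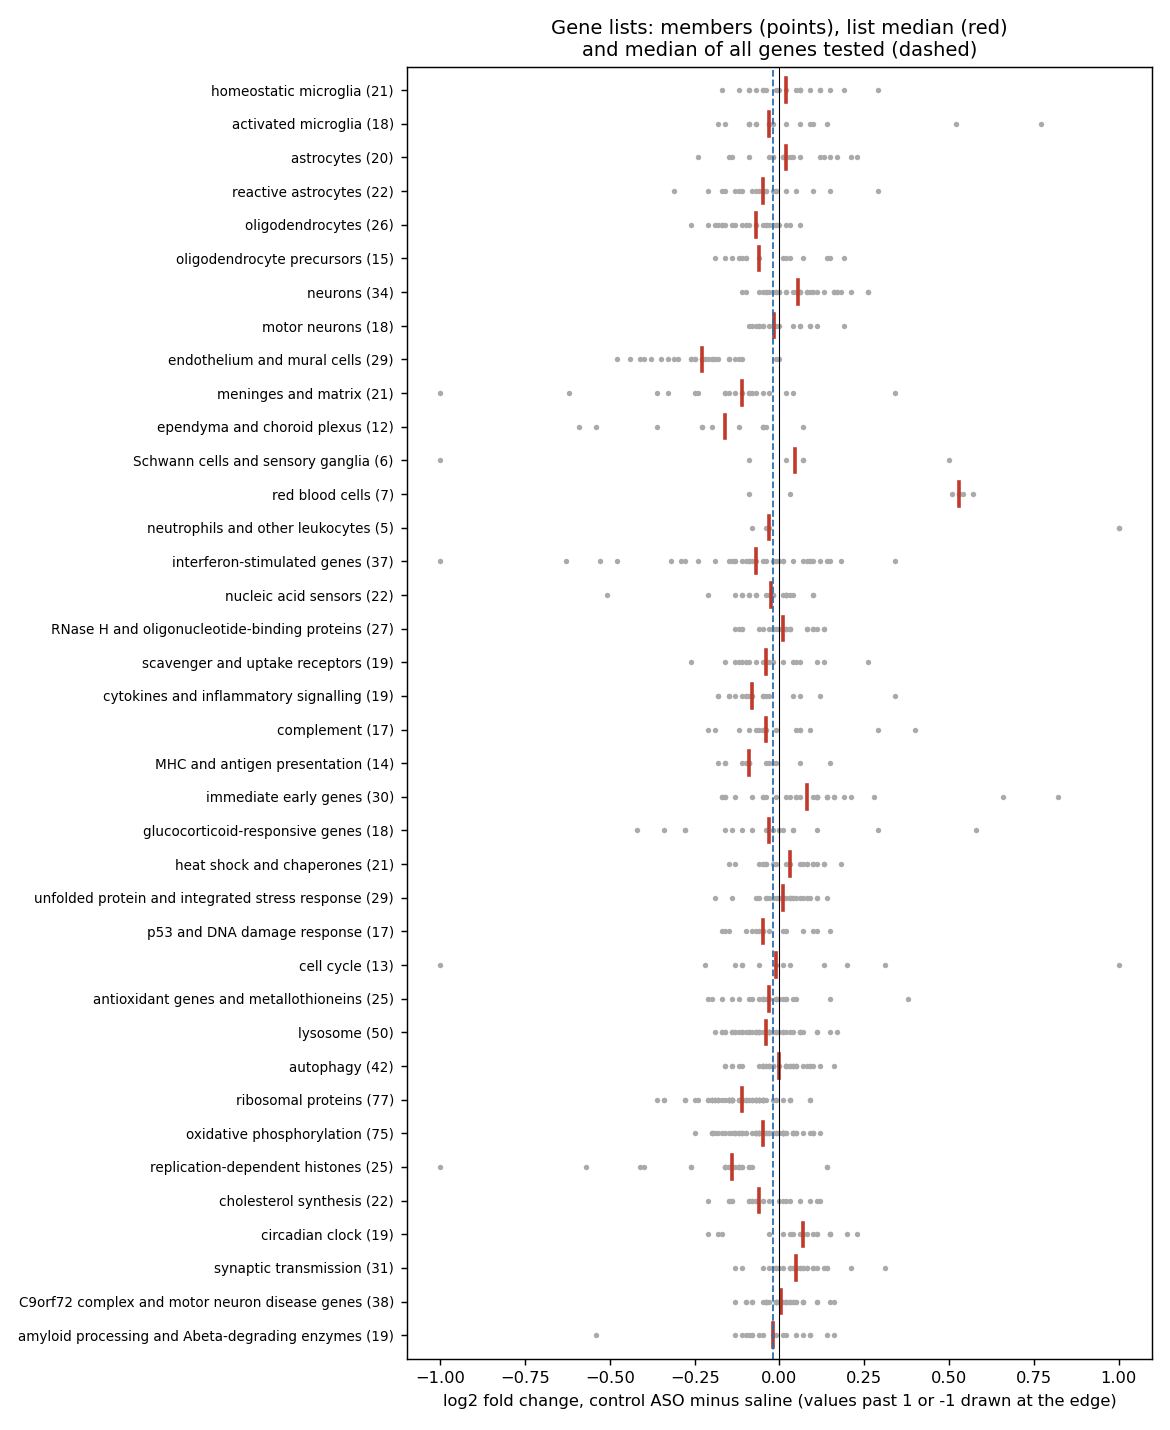
Log2 difference of control ASO minus saline (x axis) for the tested members (grey points) of each gene list with 5 or more tested, with the number tested in brackets, the list median (red bar) and the median of all genes (dashed line, -0.02). List medians lie between -0.23 for endothelium and mural cells and 0.08 for immediate early genes, apart from the red blood cell list at 0.53.

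Lists of short transcripts had medians below 0. Of 77 ribosomal protein genes 71 were below 0, with a median of -0.11, 0 called, 9 lower at an unadjusted p under 0.05 (3.95% over all genes) and 0 lower without overlap (7.21% over all genes). The median was -0.23 without saline replicate 2 and -0.05 without saline replicate 3. Ribosomal protein genes have many processed copies, so that single values are uncertain. The 25 replication-dependent histone genes had a median of -0.14, with 23 below 0, and of -0.04 without saline replicate 1. The 75 oxidative phosphorylation genes had a median of -0.05, which was -0.13, -0.01 and -0.00 when saline replicate 2, 1 or 3 was left out. Across 13867 genes, which are not independent replicates, the log2 difference went with log2 transcript length (r = 0.23) and against GC content (r = -0.24), and its median was -0.06 where transcripts were shortest and 0.02 where they were longest, taking the fifth of genes at each end.

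Stress and clearance pathways had medians near that of all genes. They were 0.03 for 21 heat shock and chaperone genes, 0.01 for 29 genes of the unfolded protein and integrated stress responses, -0.05 for 17 genes of the p53 response, -0.03 for 25 antioxidant genes, -0.03 for 18 glucocorticoid-responsive genes, -0.04 for 50 lysosome genes, 0.00 for 42 autophagy genes and 0.00 for 38 genes of the C9orf72 complex and motor neuron disease, with 0 called. The glucocorticoid median ran from -0.18 without control ASO replicate 2 to 0.10 without control ASO replicate 1, and was -0.11, -0.05 and 0.07 when saline replicate 1, 2 or 3 was left out. The list of the C9orf72 complex and motor neuron disease had a highest value of 0.16 (Smcr8), and all 38 intervals lay within 1.5-fold. Fos, an immediate early gene of neuronal activity, stood at 6.1, 5 and 4.73 RPKM after saline and at 6.06, 6.71 and 6.44 RPKM after the control ASO, overlapping at saline replicate 1 (0.28, adjusted p = 0.795, limma). Immediate early genes had a median of 0.08 over 30.

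The circadian clock list had a median of 0.07 over 19 genes, 15 of them above 0, with 2 higher and 2 lower at an unadjusted p under 0.05 (1.38% and 3.95% over all genes). The higher pair were Hlf, an output transcription factor, at 12.03, 15.47 and 14.4 RPKM after saline against 15.31, 16.54 and 17.02 RPKM after the control ASO, which overlapped, and Bhlhe41, a repressor of the clock, at 21.11, 20.25 and 20.89 RPKM against 21.76, 22.98 and 24.4 RPKM, which did not. The lower pair were Arntl, the positive arm of the clock (BMAL1), at 5.84, 6.07 and 5.52 RPKM after saline against 5.28, 5.03 and 4.99 RPKM after the control ASO, and Nr1d1, the repressor of Arntl, at 21.2, 22.8 and 22.5 RPKM against 21.1, 17.1 and 19.4 RPKM. Neither of these overlapped. After the C9orf72 ASO Arntl stood at 4.5, 4.55 and 4.54 RPKM and Nr1d1 at 16.5, 17.3 and 17 RPKM. The sources used here do not give the time of day of dissection.

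Further genes without overlap stood out by a small p and missed the threshold. Among the lower ones were Mir374b, the locus of a microRNA, at 4.07, 4.34 and 5.51 RPKM after saline, 2.46, 2.79 and 2.16 RPKM after the control ASO and 4.11, 4.49 and 3.16 RPKM after the C9orf72 ASO (control ASO minus saline -0.88, SE 0.15, adjusted p = 0.169, limma). Npb, the neuropeptide B gene, was at 6.97, 5.67 and 5.37 RPKM, 4.97, 3.93 and 3.62 RPKM and 5.58, 5.75 and 5.9 RPKM (-0.52, adjusted p = 0.795). In both the control ASO libraries lay below all others. Dao, the D-amino acid oxidase gene of astrocytes, was at 9.85, 8.96 and 9.7 RPKM, 7.99, 7.55 and 6.73 RPKM and 7.14, 6.91 and 6.34 RPKM, with both oligonucleotide groups below saline (-0.35, adjusted p = 0.755).

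The higher genes of this kind had small differences. Timp3, an inhibitor of matrix metalloproteinases, stood at 18.3, 20.4 and 20.9 RPKM after saline, 23, 24.6 and 23.1 RPKM after the control ASO and 22.2, 21.8 and 21.9 RPKM after the C9orf72 ASO (0.25, adjusted p = 0.795, limma). Ednrb, the endothelin B receptor gene, and Top1, DNA topoisomerase I, had log2 differences of 0.21 and 0.22, and Adgrg6, an adhesion receptor gene, of 0.33. All 4 missed the threshold, and the 95% intervals of these 4 ended at 0.38, 0.35, 0.36 and 0.52.

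Genes past the threshold in a C9orf72 ASO contrast of the same fit were read in the control ASO group. Tppp, a microtubule-binding protein gene of oligodendrocytes, stood at 581, 582 and 523 RPKM after saline, at 565, 540 and 552 RPKM after the control ASO and at 336, 312 and 336 RPKM after the C9orf72 ASO. Control ASO minus saline was -0.02 (95% interval -0.17 to 0.12), so that the saline and control ASO libraries overlapped and the C9orf72 ASO libraries lay apart. Ccn1, which encodes a matricellular protein, and Btg2, which slows cell division, were at 0.05 (-0.30 to 0.41) and -0.05 (-0.29 to 0.19). Tyrobp, the adaptor of Trem2, was at 0.12 (-0.09 to 0.34).

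For Lars2 and Capn11 the control ASO and saline values lay further apart, on the other side from the C9orf72 ASO. Lars2, the mitochondrial leucyl-tRNA synthetase gene, stood at 1186, 1032 and 1299 RPKM after saline, at 819, 808 and 994 RPKM after the control ASO and at 3453, 2910 and 1815 RPKM after the C9orf72 ASO (control ASO minus saline -0.42, 95% interval -0.85 to 0.00, adjusted p = 0.795, limma). Capn11, a calpain protease gene, stood at 0.758, 1.7 and 1.16 RPKM, at 2.3, 3.36 and 1.6 RPKM and at the floor (0.95, 95% interval 0.31 to 1.60, adjusted p = 0.795). Saline and control ASO libraries did not overlap for Lars2 and overlapped for Capn11. Both intervals are not adjusted for the number of genes. Lars2 passed the threshold in C9orf72 ASO minus control ASO (adjusted p = 0.0101, limma) and not in C9orf72 ASO minus saline (adjusted p = 0.0593). Low control ASO values thus helped to select it, so that its side is in part set by the choice. Capn11 passed in both contrasts.

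**Figure D4:**
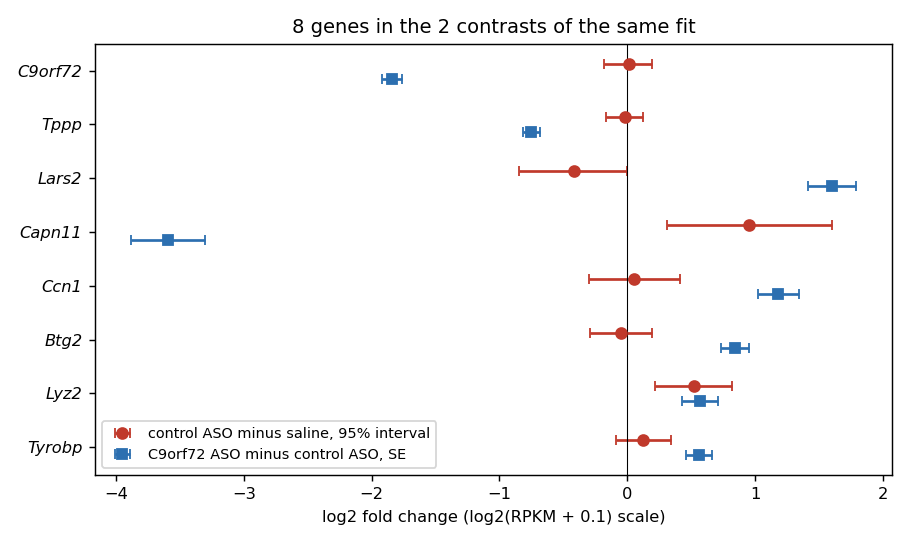
Log2 differences (x axis) of 8 genes for control ASO minus saline (red circles, bars are 95% intervals) and C9orf72 ASO minus control ASO (blue squares, bars are SE), from 1 fit, with shared control ASO libraries. C9orf72 is at 0.01 and -1.84, Tppp at -0.02 and -0.75, and the red interval of Capn11 and that of Lyz2 lie above 0.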

How the data were processed

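Strand-specific libraries were sequenced from Trizol-extracted total RNA, per the labels' protocols. The submitters' processing notes name cutadapt 1.2.1, the aligner GSNAP and the mouse build mm9. The authors deposited RPKM values per gene, a unit read from the values since the header names none, and each value under 0.5 RPKM stands at 0.1 in the deposited table (5160 values). The sources used here do not give the counter or annotation. Depth was estimated from steps between values of genes of at most 350 bases, with exon lengths of another build.

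Control ASO minus saline was tested with limma 3.58.1 (R 4.3.3, statmod 1.5.0; empirical Bayes with mean trend and robust estimation) on log2(RPKM + 0.1), in 1 fit of 9 libraries without further scaling, with Benjamini-Hochberg adjustment over 14312 genes. This scale understates changes of low genes, and the floor overstates those of genes that reach it. The script was tested on simulated data. Alternatives covered pseudocounts, filters, the floor, scaling, length and GC trends, the test setting and each library left out.

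The members and the 39 lists (935 genes) were chosen with earlier results of these data known. Lists were described by counts and medians. Named by rule were C9orf72, genes past the threshold, the smallest p without overlap up to 30 (at most 15 in each direction), the 2 smallest p of each list and a fixed set; part of them is printed. Other genes were named after their values were seen, among them Ngp, Mki67, Csf3r, Ptprc, Alas2, the neighbours of Ide apart from Btaf1, and familiar list members. Symbols were matched for 14321 of 14831 gene IDs.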

Additional observations from a re-analysis of the deposited data

How the results depend on the processing

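The count of genes past the threshold, 1 with the settings used, was 5 without a filter on low values, 2 with at least 1 RPKM in at least 3 of the 6 libraries, 0 (716 at an unadjusted p under 0.05, limma) with only genes never at the floor in the 6 libraries, 9 (2 higher, 7 lower) in limma without trend and robust estimation, 3 with length and GC trends removed and 5 at an adjusted p under 0.1. All 9 genes of limma without trend and robust estimation were at the floor throughout 1 group compared and above it throughout the other. Such p-values support no call. The same held for Fam129c, Lrrc43, Stoml3 and S100a9, which with Ide were the 5 genes without a filter and at an adjusted p under 0.1. Fits that left out 1 library gave 0 to 2, with 0 when it was control ASO replicate 1. They gave 2 without control ASO replicate 3 (S100a8 and S100a9) or without saline replicate 1 (Ide and S100a9). With control ASO replicate 2 left out, the 1 gene was Nradd and not S100a9. Fewer genes tested accounts for the 0 among genes never at the floor, since S100a9 is then left out. The cause of the other changes was not tested. The log2 difference of C9orf72 ran from -0.03 to 0.04 over fits without 1 library and was -0.00 with length and GC trends removed. Genes that missed the threshold turned sign near 0: Dnase2a at 0.02 with floor values raised and 0.01 with quantile normalization, Mbp and Btg2 at 0.00 with quantile normalization, Chat at 0.00 with length and GC trends removed. Over fits without 1 library the sign also turned within the ranges of Stab1 (-0.20 to 0.02), Hbb-bs (-0.00 to 0.94), Hbb-bt (-0.06 to 0.93), Hba-a1 (-0.06 to 0.97), Dnase2a (-0.83 to 0.09), Gfap (-0.17 to 0.05), Chat (-0.13 to 0.00), Tppp (-0.08 to 0.00), Ccn1 (-0.08 to 0.24) and Btg2 (-0.13 to 0.04). The globin genes did so without control ASO replicate 1, Gfap without saline replicate 1 and Dnase2a when control ASO replicate 2 was left out. No paired analysis was possible because the labels give no pairing of samples between the groups. Values under 0.5 RPKM are not in the table, which at the depths estimated limits low genes before depth does.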
